A study of Mus musculus with 16 samples.

Results

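Apolipoproteins are the proteins that coat plasma lipoproteins, and 10 genes of this group and of lipoprotein assembly were read in liver and quadriceps of mice given a viral vector: Apoa1, Apoa2, Apoa4, Apoa5, Apob, Apoc1, Apoc3, Apoe, Apod and Mttp. They were taken by symbol from a list chosen with earlier results of these data known, and all 10 were found among the 13701 genes of the count table. In liver, 8 of the 9 that could be tested were called lower in mice labelled as given Yap1S5A than in mice labelled as given GFP, as were 30.3% of 12818 genes, from 1.74-fold for Apoa1 to 15.8-fold for Apoa4. Apob, the structural protein of very-low-density lipoprotein (VLDL), did not pass the test. In quadriceps, Apoe and Apod were higher in Yap1S5A-labelled mice.

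Hepatocytes build VLDL by loading triglyceride onto each molecule of Apob in the endoplasmic reticulum, a step carried out by the microsomal triglyceride transfer protein Mttp. Apoa1 and Apoa2 are the main proteins of high-density lipoprotein (HDL). Apoa4, Apoa5, Apoc1 and Apoc3 ride on triglyceride-rich particles and HDL and tune lipases and clearance, Apoe is the ligand by which remnants are taken up by receptors, and Apod is a lipocalin found outside the liver rather than in it.

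The 16 libraries came from bulk liver and bulk quadriceps of male C57BL6/J mice. The mice were 12 to 14 weeks old and had carried an adeno-associated virus for 7 days, and each tissue and vector had 4 libraries. The groups were Yap1S5A liver, GFP liver, Yap1S5A quadriceps and GFP quadriceps. The genotype labels read AAV-DJ8-TGB-Yap1S5A and AAV-DJ8-TGB-EGFP, so every mouse had received virus and no group was without it. Yap1S5A is a form of the transcriptional coactivator Yap1 in which serines that the Hippo kinases use to restrain it are alanines, and the series design calls its expression hepatic. The letters TGB are not expanded in the labels, and no promoter is named otherwise. The treatment field of the labels speaks of sham surgery and hepatectomy instead, which conflicts with the titles, and the groups follow the titles. Nothing in the labels states that each replicate is a mouse of its own. If they are not, the p-values reflect the spread of samples alone, which could be technical.

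The 16 libraries held between 13817718 and 19215472 counted reads. Yap1 itself was not raised in livers labelled Yap1S5A. It had 47.1, 50.5, 53.2 and 55.1 CPM there (read counts relative to library size, scaled by the trimmed mean of M-values, TMM), against 74.2, 75.6, 69.9 and 81.5 CPM in GFP-labelled livers, a log2 fold change of -0.55 ± 0.12 (SE, edgeR adjusted p = 0.00089), which was -0.12 (edgeR adjusted p = 0.4) with total counts as the scale. Whether the counts include transcripts of the vector is not given in the sources used here. The counts of Yap1 thus do not bear out the label, nor can they test it while this is unknown. Every direction below is by label, hence "Yap1S5A-labelled". The tissue labels fitted their markers: 22 hepatocyte markers summed to 180746 to 197483 CPM in Yap1S5A-labelled livers, against 188275 to 216356 CPM in GFP-labelled livers. In quadriceps they summed to 46.5 to 254 CPM in the Yap1S5A-labelled group, against 42.5 to 56.4 CPM in the GFP-labelled group, and all 17 skeletal muscle transcripts were higher in quadriceps than in liver of GFP-labelled mice. Quadriceps replicates 1 and 2 of the Yap1S5A-labelled group stood apart, with 254 and 127 CPM of hepatocyte markers against 62.3 and 46.5 CPM in replicates 3 and 4.

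The members lie at 6 places in the genome (build mm10). Apoa1 (chromosome 9, 46228630 to 46230469), Apoc3 (46233050 to 46235636), Apoa4 (46240844 to 46243458) and Apoa5 (46268608 to 46271919) form a cluster of 43.3 kb. Apoc1 (chromosome 7, 19689480 to 19692659) and Apoe (19696244 to 19699188) lie within 9.7 kb. Apoa2 (chromosome 1, 171221564 to 171226379), Mttp (chromosome 3, 138089855 to 138143388), Apob (chromosome 12, 7977677 to 8016839) and Apod (chromosome 16, 31296192 to 31314808) stand alone. Exonic lengths in the deposited gene models differ widely, with 554 bases for Apoc1, 746 for Apoc3, 936 for Apoa2, 988 for Apoa1, 1586 for Apoe, 1666 for Apoa4, 2074 for Apod, 2321 for Apoa5, 4410 for Mttp and 13909 for Apob. Exons of Apoa2 share 76 bases with Tomm40l on the opposite strand, and those of Apoa4, Apoa5 and Mttp overlap annotated antisense or unclassified transcripts. Whether counting used strand is not given in the sources used here. Such reads were therefore not told apart.

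Together the members took 2.30% to 2.64% of all counts in Yap1S5A-labelled livers, against 3.06% to 3.29% in GFP-labelled livers, so the groups did not overlap. Per length, Apoa1 led in Yap1S5A-labelled livers with 5775 ± 1101 CPM per kb (SD, n = 4), against 10040 ± 1241 CPM per kb in GFP-labelled livers (SD, n = 4). Apoe came next in both groups, with 3442 ± 980 CPM per kb in Yap1S5A-labelled livers, against 6772 ± 784 CPM per kb in GFP-labelled livers. The order below these differed by vector. In Yap1S5A-labelled livers Apoc1 followed with 1459 ± 62.9 CPM per kb, then Apoa2 with 653 ± 174 and Apob with 517 ± 150, which lay within each other's spread. In GFP-labelled livers Apoa2 came before Apoc1, with 5275 ± 306 against 2930 ± 376 CPM per kb, and Apob stood at 450 ± 108 CPM per kb, below Apoc3 with 1588 ± 490 and Apoa5 with 833 ± 73.1. Apoa4 was the lowest of the 9 tested members in Yap1S5A-labelled livers, with 8.99 ± 2.05 CPM per kb, where Mttp had 45.9 ± 11.3 CPM per kb. The same pair had 142 ± 63.6 CPM per kb for Apoa4 and 116 ± 7.61 CPM per kb for Mttp in GFP-labelled livers, within each other's spread.

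Among the members, 9 passed the low-count filter in liver, 0 were higher and 8 were lower in Yap1S5A-labelled livers (edgeR adjusted p under 0.05 over 12818 genes). Counts of higher members were also 0 at an unadjusted p under 0.05 and by DESeq2. Of all genes tested, 33.3% were called higher and 30.3% lower. The median log2 fold change was -1.33 over the 9 members and 0.03 over all genes. For 8 members the Yap1S5A-labelled libraries all lay below the GFP-labelled ones, as did 26.5% of all genes tested. Of the 22 hepatocyte markers, 2 were higher and 16 lower, although their summed ranges overlapped, and their part in the members' values was not tested. Bulk tissue cannot tell fewer hepatocytes from less RNA in each hepatocyte.

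**Figure D1:**
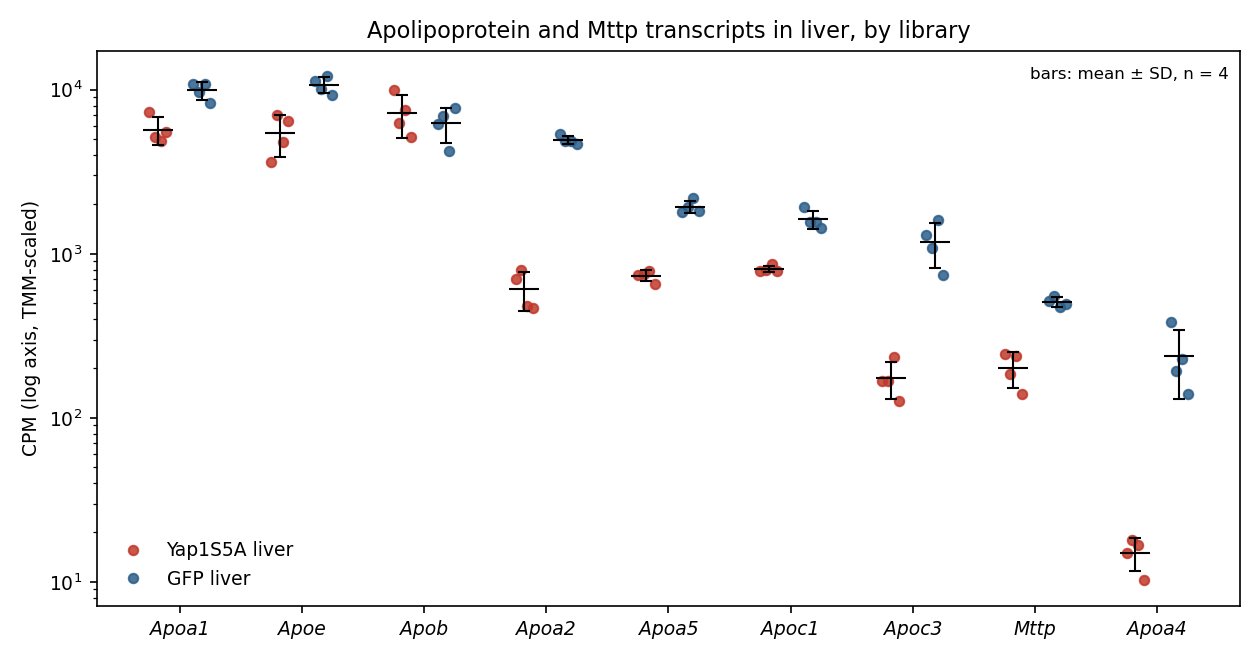
CPM (log axis, TMM-scaled) of the 9 members tested in liver, with each dot 1 library, Yap1S5A-labelled livers at left and GFP-labelled livers at right of each gene, and bars giving mean ± SD (n = 4). Apob is the gene whose groups overlap, and Apoa4 has the widest gap, with 10.2 to 17.999 CPM against 140 to 386 CPM.

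Transcripts of both main HDL proteins were called lower. Apoa2, the second protein of HDL, had 699, 798, 480 and 470 CPM in Yap1S5A-labelled livers, against 5352, 4835, 4867 and 4694 CPM in GFP-labelled livers. Every Yap1S5A-labelled library was far below the lowest GFP-labelled one, and the fall was 8.07-fold (log2 fold change -3.01 ± 0.20 SE, edgeR adjusted p = 1.1e-08). Apoa1, the scaffold of HDL and the activator of the plasma enzyme Lcat, had 7294, 5141, 4888 and 5501 CPM in Yap1S5A-labelled livers, against 10849, 9696, 10861 and 8273 CPM in GFP-labelled livers. The groups did not overlap, and the fall was 1.74-fold (-0.80 ± 0.17 SE, edgeR adjusted p = 0.000825). The call for Apoa1 was lost with total counts as the scale (-0.37, edgeR adjusted p = 0.0515), with a smooth trend over gene length removed from each library (-0.13, edgeR adjusted p = 0.532) and with all 4 groups in 1 fit (-0.81, edgeR adjusted p = 0.129).

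The largest fall was that of Apoa4, a protein of triglyceride-rich particles and HDL. It had 15.0, 17.999, 16.7 and 10.2 CPM in Yap1S5A-labelled livers, against 386, 193, 229 and 140 CPM in GFP-labelled livers, a 15.8-fold fall (-3.98 ± 0.31 SE, edgeR adjusted p = 2.69e-07). GFP-labelled libraries were spread over a wider range than those labelled Yap1S5A, and the gap between the groups was wider than either range on the log scale. Apoc3, which inhibits lipoprotein lipase and remnant uptake, had 167, 167, 236 and 127 CPM in Yap1S5A-labelled livers, against 1307, 1084, 1607 and 740 CPM in GFP-labelled livers. It fell by 2.76 ± 0.25 (SE) on the log2 scale (edgeR adjusted p = 2.8e-07), or 6.79-fold. Apoa5, which promotes lipolysis by lipoprotein lipase, had 738, 757, 790 and 656 CPM in Yap1S5A-labelled livers, against 1806, 1916, 2178 and 1833 CPM in GFP-labelled livers. Both groups were tight, and the fall was 2.63-fold (-1.39 ± 0.14 SE, edgeR adjusted p = 8.7e-07). Transcripts of Apoc3 and Apoa5, whose proteins have opposite known roles toward lipoprotein lipase, were thus both lower.

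Apoc1, a small protein that hinders remnant uptake, had 789, 795, 860 and 788 CPM in Yap1S5A-labelled livers, against 1921, 1567, 1569 and 1435 CPM in GFP-labelled livers. The groups did not overlap and the fall was 2.01-fold (-1.01 ± 0.14 SE, edgeR adjusted p = 2.36e-05), but with the length trend removed the value was -0.02 (edgeR adjusted p = 0.91). Apoe, the receptor ligand encoded beside it, had 3608, 6998, 4776 and 6451 CPM in Yap1S5A-labelled livers, against 11349, 10163, 12128 and 9324 CPM in GFP-labelled livers. Its Yap1S5A-labelled libraries varied more than those of Apoc1 and still lay below all GFP-labelled ones (-0.98 ± 0.20 SE, edgeR adjusted p = 0.000667).

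Of the pair that makes the VLDL particle, Mttp passed the test and Apob did not. Mttp, the lipid transfer protein, had 246, 185, 238 and 140 CPM in Yap1S5A-labelled livers, against 513, 554, 476 and 495 CPM in GFP-labelled livers. No library of the groups overlapped, and the fall was 2.52-fold (-1.33 ± 0.18 SE, edgeR adjusted p = 1.31e-05). Apob had 9961, 6224, 7474 and 5115 CPM in Yap1S5A-labelled livers, against 6177, 6870, 4238 and 7760 CPM in GFP-labelled livers. The groups overlapped, with replicate 1 of the Yap1S5A-labelled group highest and replicate 3 of the GFP-labelled group lowest (0.20 ± 0.22 SE, edgeR adjusted p = 0.448). The sign of Apob was not fixed by these data: it was 0.61 (edgeR adjusted p = 0.0226, called higher) with total counts, -0.30 (edgeR adjusted p = 0.231) with the length trend removed and -0.03 without Yap1S5A-labelled liver replicate 1. Apod was close to 0 in liver, with 0, 0, 1 and 2 reads in Yap1S5A-labelled livers and 0, 0, 9 and 0 reads in GFP-labelled livers, and did not pass the filter. The library with 9 reads also had the highest sum of skeletal muscle transcripts among the GFP-labelled livers, 404 CPM against 24.5 to 129 CPM in the other 3, and the part of this in the Apod reads was not tested.

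Fold changes in liver ran with gene length over the whole table. Genes in the shortest eighth, to which Apoa1, Apoa2, Apoc1 and Apoc3 belong, had a median log2 fold change of -0.67, and the second eighth, with Apoa4 and Apoe, had -0.36. The eighths with Apoa5, Mttp and Apob had medians of -0.17, 0.21 and 0.39. Apoa2 (-2.32), Apoc3 (-1.90), Apoa4 (-3.64), Apoa5 (-1.31), Mttp (-1.61) and Apoe (-0.62) stayed called lower with the trend removed from each library, with edgeR adjusted p from 1.91e-07 to 0.0125. Scaling to total counts moved the median log2 fold change of all genes by 0.42 in liver and 0.12 in quadriceps, and 7 members stayed lower in liver under it. Of all 12818 genes, 2102 were called lower in liver under that scaling. In quadriceps the medians of the eighths lay between -0.02 and 0.05.

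**Figure D2:**
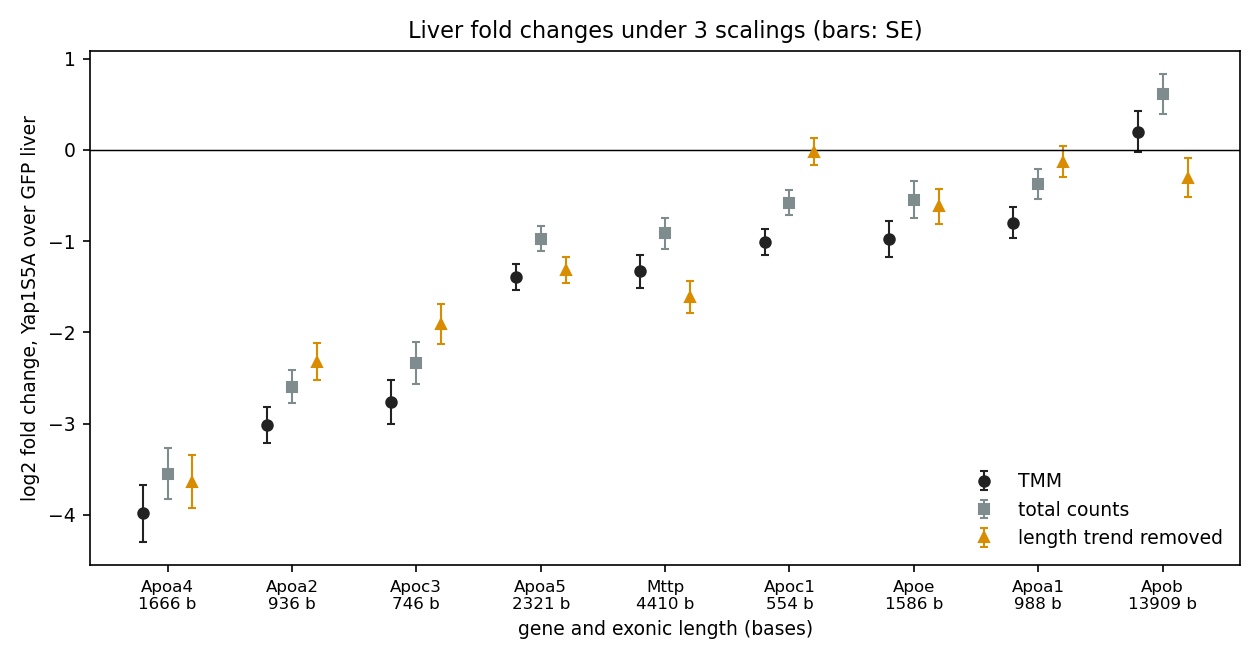
Log2 fold change of Yap1S5A-labelled over GFP-labelled livers with its SE for 9 members, under TMM scaling, total counts and with the length trend removed, with exonic length under each gene. Apoa4, Apoa2, Apoc3, Apoa5, Mttp and Apoe lie below 0 under all 3, Apoc1 (-0.02) and Apoa1 (-0.13) come close to 0 with the trend removed, and Apob changes sign.

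The make-up of the pool of apolipoprotein reads differed between the groups in a way that scaling of whole libraries does not touch, since it is a share within each library. Apob took 26.6% to 42.4% of the members' reads in Yap1S5A-labelled livers, against 11.1% to 22.4% in GFP-labelled livers. Apoa2 took 2.43% to 3.79% in Yap1S5A-labelled livers, against 12.8% to 13.5% in GFP-labelled livers. Neither pair of ranges overlapped. The share of Apoa1 was 24.4% to 31.02% in Yap1S5A-labelled livers, against 23.8% to 28.5% in GFP-labelled livers, and that of Apoe was 15.3% to 33.5% in Yap1S5A-labelled livers, against 26.9% to 31.8% in GFP-labelled livers. Both pairs of ranges overlapped. These are shares of reads and not of molecules, because longer transcripts give more reads, and shares within a pool move against each other. The trend of liver fold changes with gene length also acts on them and was not removed here. The eighths of gene length with Apoa2 and Apob had median log2 fold changes of -0.67 and 0.39.

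The promoters of Apoa4 and Apoa2, the members with the largest log2 falls, and of Apob, the member without a call, are shown for comparison (RefSeq, GRCm38.p6, plus strand, 250 bases before to 50 after the start). Capitals mark matches to the 5 motifs searched on both strands: CAAAGTCCA, CAAAGTTCA and CAAAGGTCA (of the type bound by Hnf4a), TGTTTAC (forkhead factors) and GGAATG (TEAD factors, the DNA-binding partners of Yap1). No motif overlaps another in the windows shown. The RefSeq start used for Apoa2, base 171225054, lies inside the deposited gene model, which begins further upstream. The RefSeq start used for Apoa4 is that of the deposited model, but the 1 GENCODE transcript of Apoa4 does not start within 50 bases of it, so positions in that window depend on the annotation.
Apoa4, chr9:46240594-46240893: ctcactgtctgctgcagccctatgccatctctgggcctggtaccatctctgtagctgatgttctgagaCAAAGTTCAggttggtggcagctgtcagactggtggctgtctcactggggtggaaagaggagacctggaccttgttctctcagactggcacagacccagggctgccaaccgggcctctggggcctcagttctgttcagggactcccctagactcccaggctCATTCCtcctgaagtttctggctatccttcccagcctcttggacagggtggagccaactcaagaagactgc
Apoa2, chr1:171224804-171225103: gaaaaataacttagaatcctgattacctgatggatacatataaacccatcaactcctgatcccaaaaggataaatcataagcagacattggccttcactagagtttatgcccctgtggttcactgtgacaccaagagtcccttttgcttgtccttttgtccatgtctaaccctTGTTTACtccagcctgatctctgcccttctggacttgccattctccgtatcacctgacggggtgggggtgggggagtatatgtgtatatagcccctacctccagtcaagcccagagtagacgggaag
Apob, chr12:7977427-7977726: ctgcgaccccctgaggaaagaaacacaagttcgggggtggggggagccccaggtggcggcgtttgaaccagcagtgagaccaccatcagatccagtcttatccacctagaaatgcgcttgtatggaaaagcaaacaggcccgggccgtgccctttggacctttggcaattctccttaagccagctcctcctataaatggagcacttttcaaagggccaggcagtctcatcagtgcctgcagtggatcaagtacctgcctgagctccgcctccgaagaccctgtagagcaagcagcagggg

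The Apoa4 window holds CAAAGTTCA from base -182 to -174 relative to the start and GGAATG on the opposite strand from -21 to -16. The Apoa2 window holds TGTTTAC from -77 to -71, and the Apob window holds none of the 5. Of 32851 promoter windows of the same length, 0.39% held CAAAGTTCA, 0.47% CAAAGTCCA, 0.48% CAAAGGTCA, 3.65% TGTTTAC and 14.66% GGAATG. Windows were found for 8 members (12 windows), not for Apoc1 and Apoc3, and Apoe was the other member with TGTTTAC and with GGAATG. A match describes letters in a window and not a bound site.

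Genes beside the clusters were read as well. Around the chromosome 9 cluster, the zinc finger protein gene Zpr1 had -0.92 ± 0.24 (SE, edgeR adjusted p = 0.00392), the kinase gene Sik3 had -0.36 ± 0.13 (0.0213) and Bud13 had -0.22 ± 0.19 (0.34) in liver. With total counts Zpr1 had -0.49 (edgeR adjusted p = 0.0716), Sik3 0.06 and Bud13 0.21, so the neighbours' calls did not hold under it, nor did that of Apoa1, whereas Apoa4, Apoc3 and Apoa5 stayed called. Near Apoe and Apoc1, Apoc4, a minor VLDL protein, fell by 1.98 ± 0.21 (SE) on the log2 scale (edgeR adjusted p = 1.35e-06). Apoc2, the activator of lipoprotein lipase, had -0.49 ± 0.22 (edgeR adjusted p = 0.0688) at 3.05 to 4.68 CPM in Yap1S5A-labelled livers, against 4.12 to 5.91 CPM in GFP-labelled livers, with an opposite sign of 0.27 once the length trend was removed. Clptm1 (-0.64) and Tomm40 (-0.65) were called lower under TMM and not with total counts, and Pvrl2 (0.23, edgeR adjusted p = 0.182) was called higher with total counts (0.65). With the length trend removed, Zpr1, Sik3, Clptm1 and Tomm40 stayed called lower, whereas Apoa1 (-0.13) and Apoc1 (-0.02) lost their calls.

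Transcripts of other apolipoproteins and HDL-bound proteins mostly fell with the members: of 18 tested, 1 was higher and 12 were lower, with 9 lower under total counts and 8 with the length trend removed. The median over the list was -0.82. Lcat, the enzyme that esterifies cholesterol on HDL, had 134 ± 8.18 CPM in Yap1S5A-labelled livers, against 375 ± 42.6 CPM in GFP-labelled livers (SD, n = 4 each), and Pon1, an HDL-bound esterase, had 150 ± 59.3 CPM in Yap1S5A-labelled livers, against 815 ± 105 CPM in GFP-labelled livers (SD, n = 4 each). Both were called lower (edgeR adjusted p = 3.6e-07 for Lcat and 8.91e-07 for Pon1), as was Apoh (-1.22, edgeR adjusted p = 1.29e-05). Clu, also called apolipoprotein J, was the 1 that rose (0.72 ± 0.19 SE, edgeR adjusted p = 0.00487).

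Of 36 assembly and secretion partners, 1 was higher and 23 were lower, and with total counts 7 were higher and 16 lower. Ces3a, a carboxylesterase of the endoplasmic reticulum, had 143 ± 36.5 CPM in Yap1S5A-labelled livers, against 2212 ± 427 CPM in GFP-labelled livers (SD, n = 4 each; log2 fold change -3.96, edgeR adjusted p = 3.78e-09). Ces1d, which mobilises stored triglyceride for VLDL, fell by 2.02 on the log2 scale (edgeR adjusted p = 1.1e-07). Sar1b, the GTPase of the coat that carries large lipoproteins out of the endoplasmic reticulum, fell by 1.49 (edgeR adjusted p = 2.11e-06), and Lpin2, a phosphatidate phosphatase, by 1.34 (edgeR adjusted p = 2.32e-06). Tm6sf2, needed for full lipid loading of VLDL, had 13.3 ± 4.44 CPM in Yap1S5A-labelled livers, against 36.3 ± 6.91 CPM in GFP-labelled livers (SD, n = 4 each; edgeR adjusted p = 5.92e-05). The partner subunit of Mttp, P4hb, which also acts as a general protein disulfide isomerase, had -0.18 ± 0.13 (SE, edgeR adjusted p = 0.253), with an opposite sign of 0.25 under total counts. Sec24b, a coat subunit, was the 1 that rose (0.61, edgeR adjusted p = 0.000843), and was 0.30 (edgeR adjusted p = 0.051) with the length trend removed.

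Of 18 receptors and uptake genes tested, 10 were higher and 4 lower (14 and 2 with total counts, 7 and 5 with the length trend removed). Vldlr, a receptor for triglyceride-rich particles, had 19.99 ± 1.91 CPM in Yap1S5A-labelled livers, against 2.85 ± 1.53 CPM in GFP-labelled livers (SD, n = 4 each; 2.80 ± 0.27 SE, edgeR adjusted p = 5.91e-07). The scavenger receptor Msr1 (3.86), the fatty acid transporter Cd36 (2.86) and the ubiquitin ligase Mylip (1.45) also rose. Lrp4 fell (-1.32), while Lsr, a receptor for triglyceride-rich particles (-0.47), fell under TMM but not with total counts.

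Among 15 lipases and their regulators, 2 were higher and 9 lower (4 and 8 with total counts). Lpl, lipoprotein lipase, had 141 ± 29.7 CPM in Yap1S5A-labelled livers, against 19.2 ± 8.56 CPM in GFP-labelled livers (SD, n = 4 each; edgeR adjusted p = 3.1e-06), whereas hepatic lipase Lipc (-1.46), endothelial lipase Lipg (-4.64), the lipase maturation factor Lmf1 (-1.23) and the transcription factor Creb3l3 (-1.83) fell. Among 11 efflux and export genes, 5 were higher and 4 lower, and with the length trend removed 2 were higher and 5 lower. Abcg1, a cholesterol exporter to HDL, rose (3.24, edgeR adjusted p = 1.9e-09), as did Soat1 (3.65), which stores cholesterol as esters. Abca1, which loads lipid onto Apoa1, rose by 0.71 (edgeR adjusted p = 0.00318) but was 0.22 (edgeR adjusted p = 0.268) with the length trend removed. Cyp27a1, an enzyme of bile acid synthesis (-2.505), and the sterol exporter Abcg8 (-1.85) fell. Msr1, Cd36, Lpl, Abcg1 and Soat1 are genes that macrophages also express. The 21 macrophage markers summed to 3044 to 3231 CPM in Yap1S5A-labelled livers, against 201 to 340 CPM in GFP-labelled livers, all 21 tested were higher and none was at 0 in every library, and their part in these values was not tested. Markers of some other cell types were also higher in these livers, where 33.3% of all genes were. Of 11 endothelial markers 7 were called higher and 1 lower, with a sum of 441 to 489 CPM in Yap1S5A-labelled livers, against 253 to 275 CPM in GFP-labelled livers. Of 15 stellate cell and fibroblast markers tested 6 were higher and 1 lower (955 to 1388 CPM in Yap1S5A-labelled livers, against 248 to 449 CPM in GFP-labelled livers), and of 7 Schwann cell markers tested 6 were higher (53.1 to 69.0 CPM in Yap1S5A-labelled livers, against 9.69 to 16.03 CPM in GFP-labelled livers). Other lists went the other way: of 4 adipocyte markers tested 1 was higher and 3 lower, and of 17 skeletal muscle transcripts 0 were higher and 5 lower. The part of these cell types was not tested either.

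Of 28 transcription factors known to act on apolipoprotein genes, 2 were higher and 16 lower (3 and 10 with total counts, 0 and 19 with the length trend removed). Mlxipl, the carbohydrate response factor, had 238 ± 41.6 CPM in Yap1S5A-labelled livers, against 599 ± 51.5 CPM in GFP-labelled livers (SD, n = 4 each; edgeR adjusted p = 3.88e-06). Cebpa (-1.10) and the nuclear repressor Nr0b2 (-2.48) also fell. Hnf4a, a main activator of apolipoprotein genes, had 632 to 715 CPM in Yap1S5A-labelled livers, against 707 to 956 CPM in GFP-labelled livers (-0.30 ± 0.14 SE, edgeR adjusted p = 0.0768), with a sign that turned under total counts (0.13) and a call with the length trend removed (-0.57, edgeR adjusted p = 0.00267) and by DESeq2 (-0.31, adjusted p = 0.0265).

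In quadriceps, 6 members passed the filter, 2 were higher and 0 lower in Yap1S5A-labelled mice, where 4.21% of 12121 genes were called higher. At an unadjusted p under 0.05, 4 were higher and 0 lower, and DESeq2 called 3 higher and 0 lower. The share of all genes at these settings is not reported here. Apoa2 and Apob, which were higher at the unadjusted threshold, passed the filter through the Yap1S5A-labelled libraries. Their direction is therefore not independent of how they passed. Apoe and Apod were the members whose Yap1S5A-labelled libraries all lay above the GFP-labelled ones, as did 7.33% of genes. Apoe had 184, 111, 117 and 119 CPM in Yap1S5A-labelled quadriceps, against 26.5, 52.9, 45.0 and 39.4 CPM in GFP-labelled quadriceps, a rise of 3.24-fold (log2 fold change 1.70 ± 0.24 SE, edgeR adjusted p = 0.0044). Replicate 1 of the Yap1S5A-labelled group was the highest, and the other 3 lay close together. Apod, a lipocalin made by many tissues under stress, had 85.8, 62.4, 79.0 and 106 CPM in Yap1S5A-labelled quadriceps, against 24.4, 48.4, 33.4 and 28.1 CPM in GFP-labelled quadriceps (1.31 ± 0.23 SE, edgeR adjusted p = 0.0118). Without Yap1S5A-labelled quadriceps replicates 1 and 2, a choice made after seeing the data, Apoe was at 1.52 (edgeR adjusted p = 0.011) and Apod at 1.47 (edgeR adjusted p = 0.0401). The sum of macrophage markers was 196 to 335 CPM in Yap1S5A-labelled quadriceps, against 73.9 to 134 CPM in GFP-labelled quadriceps, with 10 of 15 tested markers higher and 1 of the 21 at 0 in every Yap1S5A-labelled library. Fibroblast markers summed to 6016 to 6809 CPM in Yap1S5A-labelled quadriceps, against 5619 to 6319 CPM in GFP-labelled quadriceps, while of 15 tested 1 was called higher and 5 lower, with a median log2 fold change of -0.20. The part of either in Apoe and Apod was not tested.

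Apoa1, Apoa2, Apob, Apoc1, Apoc3 and Apoa5 had few reads in most quadriceps libraries, and Yap1S5A-labelled replicates 1 and 2 were the highest for each. Apoa1 had 234, 83, 17 and 30 reads in Yap1S5A-labelled quadriceps, against 23, 23, 17 and 34 reads in GFP-labelled quadriceps. Apoa2 had 145, 56, 24 and 23 reads in Yap1S5A-labelled quadriceps, against 21, 4, 6 and 3 reads in GFP-labelled quadriceps. Apob had 180, 37, 16 and 18 reads in Yap1S5A-labelled quadriceps, against 23, 14, 4 and 9 reads in GFP-labelled quadriceps. The same 2 replicates were the highest for the hepatocyte markers. Log2 fold changes were 1.69 ± 0.79 for Apoa1, 2.65 ± 0.77 for Apoa2 and 2.10 ± 0.89 for Apob (SE, edgeR adjusted p = 0.255, 0.0714 and 0.209), and without those 2 libraries they were -0.19 for Apoa1, 1.32 for Apoa2 and 0.32 for Apob. Apoc1 had 84, 47, 8 and 9 reads in Yap1S5A-labelled quadriceps, against 6 to 12 reads in GFP-labelled quadriceps. Apoc3 had 29, 12, 1 and 5 reads in Yap1S5A-labelled quadriceps, against 0 to 2 reads in GFP-labelled quadriceps. Apoa5 had 31, 25, 3 and 0 reads in Yap1S5A-labelled quadriceps, against 0 to 3 reads in GFP-labelled quadriceps. These 3 genes did not pass the filter and had the same 2 libraries on top. Apoa4 did not follow them: with 9, 1, 6 and 3 reads in Yap1S5A-labelled quadriceps and 14, 10, 11 and 9 reads in GFP-labelled quadriceps it was lower in CPM in every Yap1S5A-labelled library, and a fit with no filter gave -1.36 ± 0.54 (SE, edgeR adjusted p = 0.144). The groups overlapped for Mttp, at 2.98 to 4.65 CPM in Yap1S5A-labelled quadriceps, against 2.66 to 4.51 CPM in GFP-labelled quadriceps (0.15 ± 0.22 SE, edgeR adjusted p = 0.734).

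**Figure D3:**
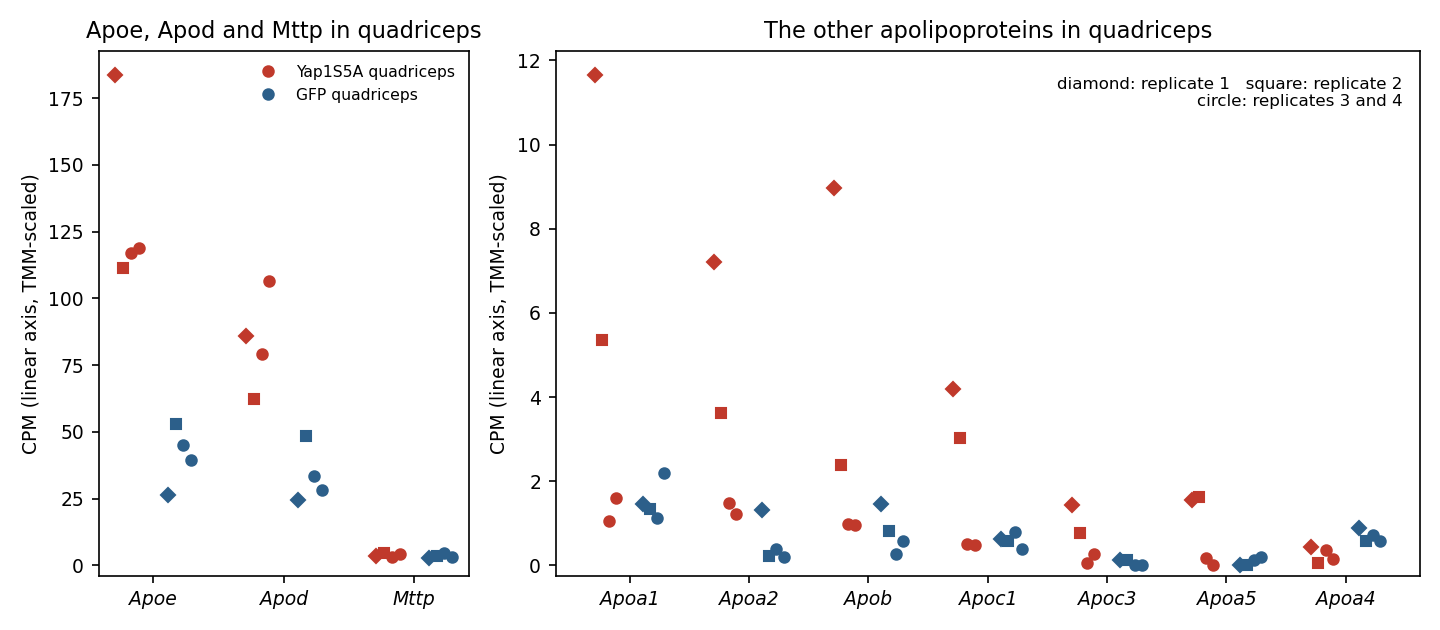
CPM (linear axes, TMM-scaled) in quadriceps by library, Yap1S5A-labelled at left and GFP-labelled at right of each gene, with diamonds for replicate 1, squares for replicate 2 and circles for replicates 3 and 4. Apoe and Apod are separated in all libraries, whereas Apoa1, Apoa2, Apob, Apoc1, Apoc3 and Apoa5 are high in Yap1S5A-labelled replicates 1 and 2.

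The ratios among these reads were set against those of liver. For every 100 reads of Apoa1, Yap1S5A-labelled quadriceps replicates 1 and 2 had 62.0 and 67.5 reads of Apoa2, whereas Yap1S5A-labelled livers had 8.54 to 15.5 and GFP-labelled livers 44.8 to 56.7. Apoc3 had 12.4 and 14.5 reads per 100 of Apoa1 in those 2 quadriceps libraries, 2.29 to 4.82 in Yap1S5A-labelled livers, against 8.95 to 14.8 in GFP-labelled livers. For Apob the same 2 libraries had 76.9 and 44.6 reads per 100, Yap1S5A-labelled livers 93.0 to 153 and GFP-labelled livers 39.0 to 93.8. For these 3 genes the ratios in the 2 quadriceps libraries lay outside the range of Yap1S5A-labelled livers, and for Apoc3 and Apob inside that of GFP-labelled livers. Those of Apoa2 lay above both liver ranges. Apoc1 and Apoa4 also lay outside the range of Yap1S5A-labelled livers, and none of the other 3 genes lay inside that of GFP-labelled livers. Apoc1 had 35.9 and 56.6 reads per 100 in the 2 quadriceps libraries, above both the 10.8 to 17.6 of Yap1S5A-labelled livers and the 14.4 to 17.7 of GFP-labelled livers. Apoa5 had 13.2 and 30.1, against 10.1 to 16.2 in Yap1S5A-labelled livers, whereas it had 16.6 to 22.2 in GFP-labelled livers, and Apoa4, from 9 reads and 1 read, had 3.85 and 1.20, against 0.185 to 0.350 in Yap1S5A-labelled livers, whereas it had 1.69 to 3.56 in GFP-labelled livers. GFP-labelled quadriceps ranged from 8.82 to 91.3 for Apoa2, 23.5 to 100 for Apob and 17.6 to 70.6 for Apoc1, which take in both values of those replicates. The ranges for Apoc3 (0 to 8.70), Apoa5 (0 to 11.8) and Apoa4 (26.5 to 64.7) take in neither. Over the 6 genes the ratios matched neither liver group throughout. They rest on few reads with no allowance for counting error, and the source of these reads was not tested.

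**Figure D4:**
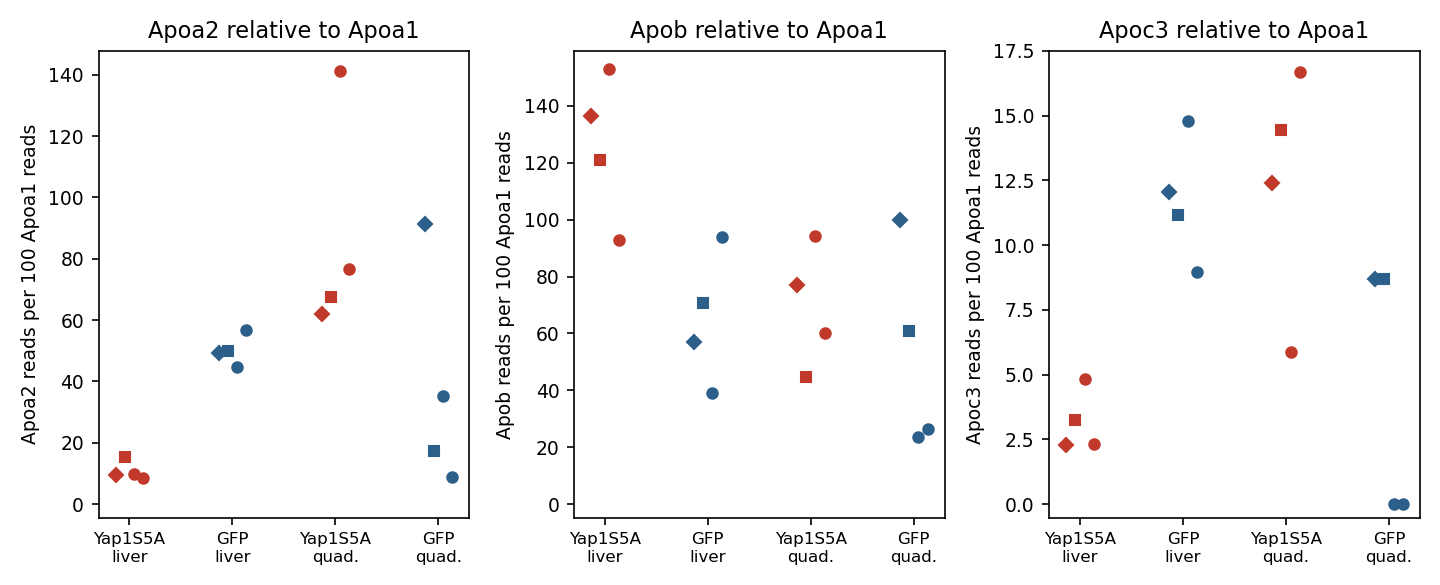
Reads of Apoa2, Apob and Apoc3 per 100 reads of Apoa1 in each library, with diamonds for replicate 1, squares for replicate 2 and circles for replicates 3 and 4. Quadriceps values rest on few reads (17 to 234 for Apoa1), and those of Yap1S5A-labelled quadriceps replicates 1 and 2 for Apoa2 (62.0 and 67.5) lie above the 8.54 to 15.5 of Yap1S5A-labelled livers.

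Among the other lipoprotein genes in quadriceps, 2 of 9 efflux genes rose and 0 fell. Abca1 had 47.9 ± 5.27 CPM in Yap1S5A-labelled quadriceps, against 24.3 ± 2.64 CPM in GFP-labelled quadriceps (SD, n = 4 each; edgeR adjusted p = 0.000176), and Abcg1 rose by 1.53 (edgeR adjusted p = 0.00154). Of 15 receptors and uptake genes, Mylip (0.92), the HDL receptor Scarb1 (0.80) and Lrp4 (0.52) rose, while the sorting receptor Sort1 (-0.68) and Lrpap1 (-0.28), a receptor chaperone, fell. Of 9 other apolipoproteins and HDL proteins, Pltp, the phospholipid transfer protein (1.11), and Apol10b (0.81) rose, and Pon3 (-0.85) and Clu (-1.02) fell. Of 29 assembly partners, P4hb rose by 0.31, and Preb (-0.35) and Vmp1 (-0.37) fell. None of 10 lipases or regulators was called, 0 at an unadjusted p under 0.05 and 0 by DESeq2, although 2 (Angptl4 and Pcsk6) were called lower without Yap1S5A-labelled quadriceps replicates 1 and 2. Lpl had 711 ± 213 CPM in Yap1S5A-labelled quadriceps, against 400 ± 227 CPM in GFP-labelled quadriceps (SD, n = 4 each; 0.83 ± 0.47 SE, edgeR adjusted p = 0.362). Of 19 transcription factors, Rara (0.55) and Nr1h3 (0.48) rose and Mlxipl (-0.31) fell. Without Yap1S5A-labelled quadriceps replicates 1 and 2, the calls of Pltp, Apol10b, Clu, P4hb, Preb, Vmp1, Lrp4, Sort1, Lrpap1, Rara and Mlxipl were lost, with edgeR adjusted p from 0.055 to 0.284, in a fit with fewer libraries. Preb, Vmp1, Lrpap1 and Mlxipl also lost their calls with total counts as the scale.

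The vector effects in the tissues were compared in 1 fit over all 16 libraries. For 8 members the effect was lower in liver than in quadriceps (edgeR adjusted p under 0.05), as it was for 22.5% of 13669 genes. Of these 8, Apoa4, Apoa5, Apoc1 and Apoc3 had not passed the filter in quadriceps and entered this fit through their liver counts. Their values rest on few quadriceps reads, with 0 to 2 per GFP-labelled library for Apoc3, so the size of each difference is not fixed. Apoe, the 1 member called in both tissues, had opposite directions, and its liver effect minus its quadriceps effect was -2.67 ± 0.44 (SE, edgeR adjusted p = 5.28e-05). Apoa2 had -5.68 ± 0.71 (2.35e-06), Apoc3 -6.02 ± 0.95 (4.52e-05) and Mttp -1.49 ± 0.27 (0.000131). Those 4 stayed called without Yap1S5A-labelled quadriceps replicates 1 and 2, at -2.52, -4.36, -4.14 and -1.40 for Apoe, Apoa2, Apoc3 and Mttp. The other 4 lost the call without these libraries: Apoa1 was at -0.64 instead of -2.51, Apoc1 at -0.74 instead of -2.80, Apoa5 at -1.55 instead of -4.70 and Apoa4 at -2.61 instead of -2.64 (edgeR adjusted p = 0.268, 0.164, 0.339 and 0.0502). Apob had -1.92 ± 0.82 (edgeR adjusted p = 0.0596), or -0.14 without these 2 libraries. Apod had -3.21 ± 1.43 (edgeR adjusted p = 0.0728), or 1.26 without GFP-labelled liver replicate 3, which held 9 of its reads in liver.

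Liver and quadriceps of GFP-labelled mice were compared last. All 10 members were called: 9 were higher in liver, where 40.0% of 12865 genes were, and Apod was the 1 that was lower, where 38.8% of genes were. Members with few reads in GFP-labelled quadriceps, such as Apoc3 (4 over the group) and Apoa5 (5), passed the filter of this fit through liver only. Apod passed it through quadriceps only. For these the direction was set by how they passed. Mttp was 124-fold and Apoe 220-fold higher in liver in the fit with both tissues scaled together. These folds are not ratios of the CPM given above, which were scaled within each tissue. Apod had 9 reads over the 4 GFP-labelled livers, all in 1 library, and 386 to 835 reads in each GFP-labelled quadriceps library.

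The genes whose levels ran most like each member's were found from deviations from the group mean of log2 CPM, over 8 libraries of a tissue, as a description with no test. In liver the closest were Dapk2 for Apoa4 (r = 0.990), Zfp780b (0.990) and Apc (0.990) for Apob, Slc33a1 for Mttp (0.990), Acly, the enzyme that makes cytosolic acetyl-CoA, for Apoc3 (0.989), Cchcr1 for Apoe (0.988), Impg2 for Apoa1 (0.984), Clcn5 for Apoc1 (0.974), Gdap10 for Apoa5 (0.961) and Egr2 for Apoa2 (0.960). In quadriceps they were Acsl5 for Apoe (0.995) and Acot1 for Apod (0.970), both enzymes of acyl-CoA metabolism. None of the members was the closest gene of another, and so few libraries set against so many genes leave some high r for each member.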

How the data were processed

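Bulk total RNA was sequenced on Ion Torrent, per the labels' protocols. Per the submitters' processing notes the tools were STAR 2.4.2a, featureCounts from Subread 1.5.0 and FastQC 0.11.5, on build mm10, with settings not given in the sources used here. The authors deposited raw read counts for 13701 genes, with no molecular identifiers, so reads and not molecules were counted. The SE and p-values reflect the spread between libraries as well as counting error. The deposited scaled values (a signal: counts over an effective library size) served only as an alternative scaling. Groups follow the titles. The accompanying sheet gives liver and quadriceps libraries shared IDs, read as mice; deviations of same-ID libraries correlated at -0.0193 to 0.0778. No replicate pair agreed within sampling noise.

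The test was that of edgeR 4.0.16 under R 4.3.3 (filterByExpr, TMM, robust quasi-likelihood, Benjamini-Hochberg over all genes tested, threshold 0.05), each tissue alone and the interaction over 16 libraries. Each fold change's SE was taken as its log2 size over the square root of F. The fits were tested on simulated data. Log2 CPM used a prior count of 2. DESeq2 1.42.0, limma-voom 3.58.1, other scalings, no filter, removal of a lowess trend with exonic length (span 0.3), a replicate block and leaving out libraries were alternatives. Python 3.11.15 drew the plots. The members and lists were chosen with earlier results of these data known. Named from each list were up to 4 called genes per direction by smallest p, any sole call, P4hb, Tm6sf2, Apoc2, Vldlr, Lpl, Hnf4a and Abca1, the cluster neighbours within 50 kb, and genes among the 2 most correlated with each member. A few genes that this rule names are not reported here.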

Additional observations from a re-analysis of the deposited data

Results flagged for a closer look

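In 40 combinations of a member and a group, 3 had a library far from the other 3, and chance flags about 1 in 20 such groups. These were Apoc1 in Yap1S5A-labelled liver replicate 3 (860 CPM), Apod in GFP-labelled liver replicate 3 (0.685 CPM, 9 reads) and Apoe in Yap1S5A-labelled quadriceps replicate 1 (184 CPM).

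For 8 members the vector effect was lower in liver than in quadriceps by the interaction term of edgeR, as it was for 22.5% of 13669 genes. The log2 differences were -5.68 for Apoa2, -6.02 for Apoc3, -4.70 for Apoa5, -2.80 for Apoc1, -2.67 for Apoe, -2.64 for Apoa4, -2.51 for Apoa1 and -1.49 for Mttp. Those of Apoa1, Apoc1, Apoa5 and Apoa4 were not called without Yap1S5A-labelled quadriceps replicates 1 and 2, at -0.64, -0.74, -1.55 and -2.61. Apoa4, Apoa5, Apoc1 and Apoc3 had not passed the filter in quadriceps and entered this fit through their liver counts.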

How the results depend on the processing

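Of 706 alternative values of single members, 672 kept their direction and side of the threshold, 12 lost the call, 18 gained one and 4 changed sign: Apob in liver with the length trend removed (-0.30) and without Yap1S5A-labelled liver replicate 1 (-0.032, with 0.32 as the highest value when leaving out 1 library), Apoa1 in quadriceps without Yap1S5A-labelled replicates 1 and 2 (-0.19) and the Apod interaction without GFP-labelled liver replicate 3 (1.26, with -4.10 as the lowest value when leaving out 1 library). With total counts, liver had 6506 genes called higher and 2102 lower, 1 member (Apob) higher, 254 genes lower in quadriceps and 1893 lower in the interaction, against 4264, 3890, 0, 584 and 3075 with TMM. All 4 groups in 1 fit called 334 genes lower in quadriceps. Leaving out 1 library gave 277 to 464 genes higher and 325 to 560 lower in quadriceps, against 510 and 584, with 277 and 325 without GFP-labelled replicate 4, 323 and 382 without Yap1S5A-labelled replicate 3 and 355 lower without Yap1S5A-labelled replicate 1. Leaving out Yap1S5A-labelled replicates 1 and 2, chosen after seeing the data, gave 271 higher and 256 lower, and 4 members lower in the interaction instead of 8. Beyond the fewer libraries in those fits, the cause was not tested.

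In the vector comparisons the replicate numbers do not pair libraries (correlations of deviations -0.0965 to 0.0279 in liver and -0.277 to 0.0855 in quadriceps). With the replicate block, 8 members were lower in liver. The share of all genes called with the block is not reported here. Without it, 30.3% of 12818 genes were lower in liver and 4.21% of 12121 were higher in quadriceps. In quadriceps 2 were higher, Apoa2 (2.68, adjusted p = 0.00329 by edgeR) and Apob (1.80, 0.0168), while Apoe had 1.70 (0.0704) and Apod 1.34 (0.093). A block for the shared IDs changed no interaction call of a member. Apoa2 in quadriceps was also called without GFP-labelled replicate 1 (3.60), without Yap1S5A-labelled replicate 4 (2.93), by DESeq2 (2.66) and with all groups in 1 fit (2.66). In the fits of quadriceps alone, Apoa2 and Apob passed the filter through the Yap1S5A-labelled libraries, where they had more reads. Their calls in those fits are therefore not independent of how they passed. The Apoa4 interaction was not called without Yap1S5A-labelled quadriceps replicate 1 (-2.19) or by limma-voom (-2.39). Depth limits Apoa1, Apoa2, Apob, Apoa4, Apoa5, Apoc1 and Apoc3 in quadriceps and Apod in liver.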

Other observations

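Fabp2, a fatty acid binding protein known from intestine and also made by liver, had 4.44 ± 1.26 CPM in Yap1S5A-labelled livers, against 37.997 ± 16.6 CPM in GFP-labelled livers (SD, n = 4 each; -3.10 ± 0.30 SE, edgeR adjusted p = 1.42e-06).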
